A study of Mus musculus with 6 samples.

Results

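Interferon-stimulated genes are the genes whose transcripts increase when a cell receives an interferon signal. A fixed list of 46 of their symbols was followed in myotubes and myoblasts labelled as C2C12. The array measured 11963 genes, 45 of the 46 among them. The remaining one, STAT2, a subunit of the factor that carries the type I interferon signal to the nucleus, had no probe set annotated to it alone. After a filter on dim genes 32 members were tested and 13 were not. Of the 32, 15 were higher in myotubes, none was lower, and 17 did not pass the test, at a Benjamini-Hochberg adjusted p of 0.05 from limma. Over all 8161 genes tested, 5.88% were called higher and 7.09% lower.

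C2C12 is a line of mouse muscle precursors: its myoblasts divide until serum is withdrawn and then fuse to form myotubes. The groups were 3 arrays of myotube RNA and 3 arrays of myoblast RNA, and the labels name no genotype, treatment or day of differentiation for either. The arrays were HG-U133A, which carry probes against human transcripts, whereas the labels call the organism mouse. Which species the RNA came from is not settled by the files, and genes carry the human symbols of their probe sets. The title of myoblast array 3 reads "Grow (G3)" and names no cell stage. Its group was taken from the description it shares with the other myoblast arrays, "Myoblast (1-2) G(1-2)", which numbers only 2 of the 3. Its group is therefore less certain than the others, and whether it repeats a sample of array 1 or 2 is not stated. Whether the arrays of a group stand for separate cultures is not stated in the labels. The p-values therefore reflect the spread among arrays alone, and that spread may be technical.

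Interferons are secreted proteins that bind receptors at the cell surface and activate Janus kinases, which phosphorylate STAT transcription factors. STAT2 and IRF9 are part of the complex that enters the nucleus after a type I interferon signal and binds the interferon-stimulated response element, a pair of GAAA blocks in the promoters of target genes. The products of these genes block viral entry, translation and replication, tag proteins with ISG15, and change antigen processing. Many are also expressed at a low level in cells that have met no virus.

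Signals are the deposited MAS5 values, on a linear scale. Changes are differences in log2(signal + 197), myotube minus myoblast, and 197 is the 25th percentile of all deposited values. Folds on this scale understate the change of dim genes. The brightest control probe set with no spiked transcript had a signal between 520 and 1040 on the myotube arrays and between 252 and 920 on the myoblast arrays, here called the control level. Values at or below it on the same array were not told from background. Marker genes moved in the direction of the group labels: 9 of 11 tested myotube markers were called higher in myotubes and 7 of 8 tested markers of dividing cells lower. Fibroblast markers moved as well, with 9 of 10 higher and a summed signal of 292403 to 405797 on the myotube arrays, against 82580 to 157035 on the myoblast arrays. None of the 6 tested white cell markers was called. The 14 white cell markers with a probe set summed to 5766 to 11136 on the myotube arrays, against 3175 to 6347 on the myoblast arrays, and 6 of the 14 did not exceed the control level on any array. None of these markers was at 0. Their part in the results below was not tested, and a change in the proportion of a cell type cannot be told apart from a change of RNA per cell.

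All myotube arrays came from one chip lot and one scan day, and no myoblast array shared either, so lot, scan day and group cannot be told apart. By the laboratory codes of the run records, myoblast array 1 belonged to a series with the 3 myotube arrays, and myoblast arrays 2 and 3 to another. Across probe sets, Pearson's r was 0.988 between myoblast arrays 2 and 3, and these arrays correlated with myoblast array 1 at 0.908 and 0.912. With myoblast arrays 2 and 3 averaged and counted as 1 sample, 7 of the 32 members were higher, beside 2.38% of all genes tested. Myotube array 3 correlated with the myoblast arrays at 0.909 to 0.924, and myotube arrays 1 and 2 at 0.831 to 0.879. Probe sets are not independent replicates, so these correlations only describe the arrays. Each call was therefore also computed with the series as a block, which rests on the 3 myotube arrays against myoblast array 1. With it 4 of the 32 members were higher (TRIM22, UBE2L6, IFI6 and LGALS3BP), beside 1.81% of all genes tested.

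Most members had a positive change, called or not. The median log2 change of the 32 was 0.95, against 0.12 for all genes tested, and the range ran from -0.69 to 2.29. The change was positive for 27 members and negative for 5. All 3 myotube arrays lay above all 3 myoblast arrays for 20 members, where 18.5% of all tested genes did so. They lay below for 1 member, IFIT5, where 16.3% of all tested genes did so. The groups overlapped for the other 11.

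**Figure D1:**
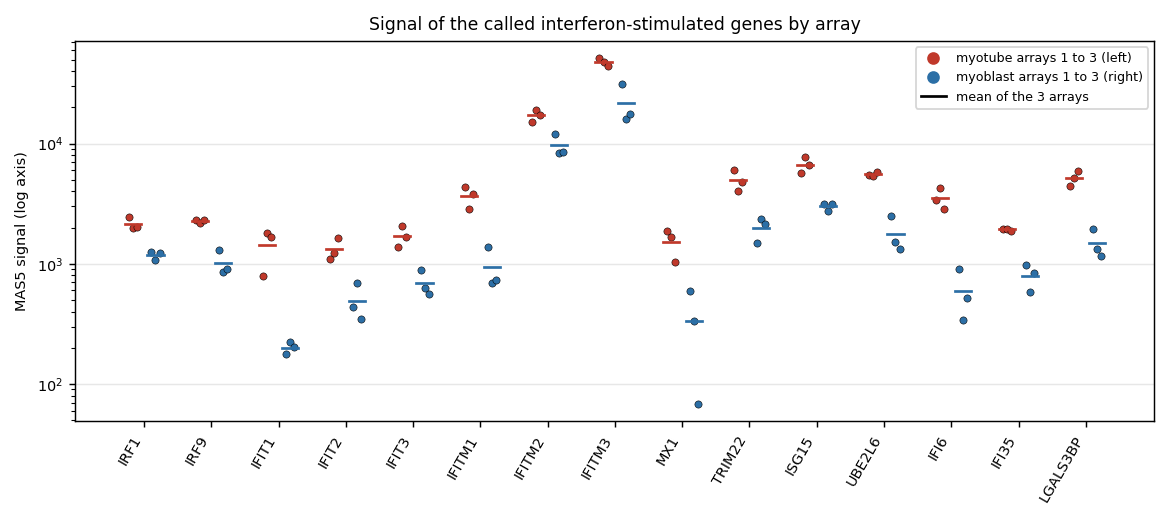
MAS5 signal (log axis) of the 15 members called higher, with the 3 myotube arrays (red, left) beside the 3 myoblast arrays (blue, right) and a bar at each group's mean. For each of the 15 genes every myotube point lies above every myoblast point, and the lowest myotube signal was between 1.27 and 3.59 times the highest myoblast signal.

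Among the factors that carry the signal, 2 of 3 tested members were higher. IRF9, the DNA-binding subunit of the type I interferon complex, had signals of 2302, 2203 and 2327 on myotube arrays 1, 2 and 3, against 1306, 852 and 904 on myoblast arrays 1, 2 and 3. The myotube arrays were tightly grouped and none overlapped the myoblast arrays. Its log2 change was 1.04 ± 0.24 (SE, n = 3 arrays each; limma adjusted p = 0.0198), a fold of 2.06.

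IRF1, a transcription factor that is itself induced by interferon gamma and then acts on further targets, had signals of 2434, 1972 and 2007 in myotubes, against 1242, 1084 and 1219 in myoblasts. Its log2 change of 0.76 ± 0.22 passed narrowly, with a limma adjusted p of 0.0498, and the call was kept when myoblast array 1 was left out and lost without any one of the other 5 arrays. IRF7, which amplifies production of type I interferon, had signals of 1015, 762 and 476 in myotubes, against 369, 243 and 226 in myoblasts. Only myotube array 1 exceeded its control level, so the other 5 values were not told from background. The fitted log2 change of 0.97 ± 0.39 was not called (limma adjusted p = 0.125) and compares values that are mostly at that level.

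The mouse promoter of Irf1 held a match to the gamma-activated site, the element that STAT dimers bind. It is printed because Irf1 is the one called transcription factor with a motif in this window. The stretch is RefSeq's, GRCm38.p6, chr11:53769904-53769952 on the plus strand, read 5′ to 3′ with the match TTCNNNGAA in capitals.
Irf1: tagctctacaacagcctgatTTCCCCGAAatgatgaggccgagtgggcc

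The IFIT and IFITM families contained 6 of the 15 called members, out of 7 tested. IFIT proteins bind viral RNA that lacks the host's cap marks or interact with translation factors, and IFITM proteins sit in membranes and hinder fusion of enveloped viruses. IFIT1 had signals of 795, 1818 and 1674 in myotubes, against 177, 222 and 203 in myoblasts, and none of the 3 myoblast values exceeded the control level of its array. The measured log2 change was 1.97 ± 0.38 (limma adjusted p = 0.0101). Raised to the control level, myoblast array 1 stood at 920, above myotube array 1 at 795, so the groups overlapped. On that scale the IFIT1 fold was 3.18 and was not called (limma adjusted p = 0.0619). Without myotube array 2 the limma adjusted p of the measured change was 0.0562, and no other single omission ended the call.

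IFIT2, which binds double-stranded RNA and forms complexes with other IFIT proteins, had signals of 1087, 1239 and 1628 in myotubes, against 439, 692 and 347 in myoblasts. IFIT3, which stabilises IFIT1, had signals of 1371, 2059 and 1672 in myotubes, against 886, 626 and 561 in myoblasts. Every myotube array exceeded every myoblast array for both genes, and for each gene 1 myoblast value was at or below the control level. The log2 change was 1.15 ± 0.33 for IFIT2 (limma adjusted p = 0.0444) and 1.10 ± 0.29 for IFIT3 (limma adjusted p = 0.032). With signals raised to the control level the IFIT2 change was 1.10 and no longer called (limma adjusted p = 0.1). Both calls were kept only when myoblast array 1 was left out and were lost without any one other array.

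IFIT5, the family member that binds RNA with a 5′ triphosphate, went the opposite way, with 845, 643 and 1192 in myotubes, against 1237, 1697 and 1702 in myoblasts. All 3 myotube arrays were below all 3 myoblast arrays, yet the log2 change of -0.69 ± 0.29 was not called (limma adjusted p = 0.131). Of the 3 IFIT5 myotube values, 1 was at or below the control level. A second IFIT5 probe set gave -0.22 ± 0.44 with overlapping groups.

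Among the protein-coding genes of the mouse annotation, Ifit2 and Ifit3 are adjacent. The promoters of Ifit1 and Ifit3 each held 2 copies of the response element core, GAAANNGAAA on either strand, and they are printed to show this paired arrangement in genes whose human probe sets were called. Both stretches are RefSeq's from GRCm38.p6, plus strand, 5′ to 3′, with the cores in capitals, which are reverse complements because these cores lie on the opposite strand. That of Ifit1 is chr19:34640765-34640833 and that of Ifit3 chr19:34583353-34583436.
Ifit1: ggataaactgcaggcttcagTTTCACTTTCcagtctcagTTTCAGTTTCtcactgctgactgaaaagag
Ifit3: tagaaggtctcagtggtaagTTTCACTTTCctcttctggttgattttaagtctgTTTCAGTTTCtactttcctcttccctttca
The core nearest the transcription start ended 75 bases before it in Ifit1 and 112 bases before it in Ifit3.

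IFITM1, found largely at the plasma membrane, had signals of 4330, 2865 and 3792 in myotubes, against 1385, 688 and 729 in myoblasts. IFITM2 had 15169, 18939 and 17311 in myotubes, against 11921, 8403 and 8589 in myoblasts. IFITM3, which acts mainly in endosomes, had 51486, 47670 and 44053 in myotubes, against 31580, 16034 and 17653 in myoblasts. For all 3 genes myoblast array 1 was the highest of its group and still lay below each myotube array. The log2 change was 1.80 ± 0.28 for IFITM1, 0.83 ± 0.19 for IFITM2 and 1.19 ± 0.27 for IFITM3, with limma adjusted p of 0.00384, 0.0209 and 0.0193.

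With the series block the change was 1.27 for IFITM1 (limma adjusted p = 0.0628), 0.51 for IFITM2 (adjusted p = 0.218) and 0.59 for IFITM3 (adjusted p = 0.136). These genes are near-identical in sequence, and their probe sets are of the types that can bind more than one transcript, so the 3 values are not certain to be separate measurements. In the mouse annotation Ifitm1, Ifitm2 and Ifitm3 are neighbours. The Ifitm2 promoter is printed as a single-core case for comparison with the Ifit pair, from chr7:140955978-140956027 on the minus strand of RefSeq's GRCm38.p6, 5′ to 3′ with the core in capitals.
Ifitm2: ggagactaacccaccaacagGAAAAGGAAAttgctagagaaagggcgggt

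Of the GTPases and other antiviral effectors, 2 of 5 tested members were higher. MX1, a dynamin-like GTPase that blocks influenza and related viruses, had signals of 1860, 1669 and 1042 in myotubes, against 597, 333 and 69 in myoblasts. The myoblast arrays were spread over a wide range, and 2 of the 3 were at or below the control level. The log2 change was 1.80 ± 0.44 (limma adjusted p = 0.0252), and it was 1.08 with the series as a block (adjusted p = 0.319). MX2, which restricts HIV and herpesviruses in human cells, had overlapping groups and a log2 change of 0.62 ± 0.38 that was not called.

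TRIM22, a ubiquitin ligase that restricts several viruses in human cells, had signals of 6070, 4047 and 4820 in myotubes, against 1479, 2361 and 2145 in myoblasts. Here myoblast array 1 was the lowest of its group, unlike in most members. It changed by 1.24 ± 0.23 on the log2 scale (limma adjusted p = 0.00769), a fold of 2.37, and under the series block 1.61 (adjusted p = 0.0188).

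GBP1, a GTPase that coats intracellular pathogens, had signals of 1432, 861 and 1879 in myotubes, against 312, 640 and 604 in myoblasts. Its arrays did not overlap, and its log2 change of 1.13 ± 0.36 was not called (limma adjusted p = 0.0665, 95% interval 0.32 to 1.94). In each group 1 of the 3 GBP1 values was at or below the control level. A dimmer second GBP1 probe set had overlapping groups. PLSCR1, a phospholipid scramblase, had a log2 change of -0.45 ± 0.31 and overlapping groups. A dimmer second PLSCR1 probe set gave -0.8 ± 0.42, also with overlapping groups.

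ISG15 is a ubiquitin-like protein that is attached to other proteins, and 2 of the 3 tested members of its conjugation system were higher. ISG15 itself had signals of 5722, 7666 and 6645 in myotubes, against 3122, 2766 and 3119 in myoblasts. The myoblast arrays were close to each other and well below the lowest myotube array. The log2 change was 1.10 ± 0.18 (limma adjusted p = 0.00434), a fold of 2.14. Under the series block its change was 1.04, and the adjusted p of 0.0521 was just outside the threshold.

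UBE2L6, the enzyme that carries activated ISG15 to its ligase, had signals of 5522, 5347 and 5778 in myotubes, against 2518, 1513 and 1317 in myoblasts. The myotube arrays were within a narrow range, and myoblast array 1 was the highest of its group. UBE2L6 had a log2 change of 1.58 ± 0.23 (limma adjusted p = 0.00296), a 3.0-fold difference. HERC5, the main ISG15 ligase in human cells, had 849, 1010 and 298 in myotubes, against 333, 322 and 330 in myoblasts. Myotube array 3 was below all myoblast arrays, and the log2 change of 0.70 ± 0.43 was not called. In each group 2 of the 3 HERC5 values were at or below the control level.

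The Isg15 promoter held 3 overlapping copies of the core, so that 4 GAAA blocks follow each other. It is printed to show this run, from chr4:156200855-156200916 on the minus strand of RefSeq's GRCm38.p6, 5′ to 3′ with the cores in capitals.
Isg15: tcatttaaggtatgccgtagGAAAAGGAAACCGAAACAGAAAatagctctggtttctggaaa

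The immunoproteasome replaces catalytic subunits of the constitutive proteasome and alters the peptides made for antigen presentation. Neither of its 2 tested subunits was called. PSMB9 had signals of 1253, 1473 and 1074 in myotubes, against 805, 336 and 458 in myoblasts. The groups did not overlap, although 1 of the 3 PSMB9 myoblast values was at or below the control level. The log2 change of PSMB9 was 1.05 ± 0.34 (limma adjusted p = 0.0676, 95% interval 0.30 to 1.80). PSMB10 had a log2 change of 0.94 ± 0.39 (limma adjusted p = 0.13), and its myotube array 1, at 717, lay below myoblast array 1, at 920. The PSMB10 value of 717 was at or below the control level.

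Of the other induced genes 3 of 6 tested were higher, namely IFI6, LGALS3BP and IFI35. IFI6, a small protein of mitochondrial and endoplasmic reticulum membranes, had signals of 3425, 4283 and 2844 in myotubes, against 911, 340 and 516 in myoblasts. IFI6 was highest in the myoblast group on array 1, where it was at or below the control level. The gene's lowest myotube value was 3.12 times that value. Its log2 change was 2.29 ± 0.31 (limma adjusted p = 0.00198), a fold of 4.88, and 1.73 with the series as a block (adjusted p = 0.0318).

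LGALS3BP, a secreted glycoprotein that binds galectins, had signals of 4424, 5184 and 5871 in myotubes, against 1947, 1324 and 1166 in myoblasts. Its log2 change was 1.70 ± 0.22 (limma adjusted p = 0.00187), a fold of 3.24. IFI35, a leucine zipper protein that has been tied to innate signalling, had 1962, 1957 and 1867 in myotubes, against 978, 585 and 832 in myoblasts. Both genes were separate between the groups on every array. The log2 change of IFI35 was 1.11 ± 0.26 (limma adjusted p = 0.0209).

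The other 3 tested genes of this class were not called. IFI16, a sensor of DNA, had a log2 change of 0.45 ± 0.20 (limma adjusted p = 0.145) with non-overlapping groups, and its other probe sets gave 0.05 and 0.64. SP110, a nuclear body protein, had -0.43 ± 0.25 with overlapping groups. A second SP110 probe set gave -0.70 ± 0.21 with no overlap, and an adjusted p of 0.0553 when limma was run over 13329 probe sets. Another SP110 probe set gave -0.31 ± 0.22, also with no overlap, and the dimmest one had overlapping groups. IFI44 had 0.26 ± 0.33.

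**Figure D2:**
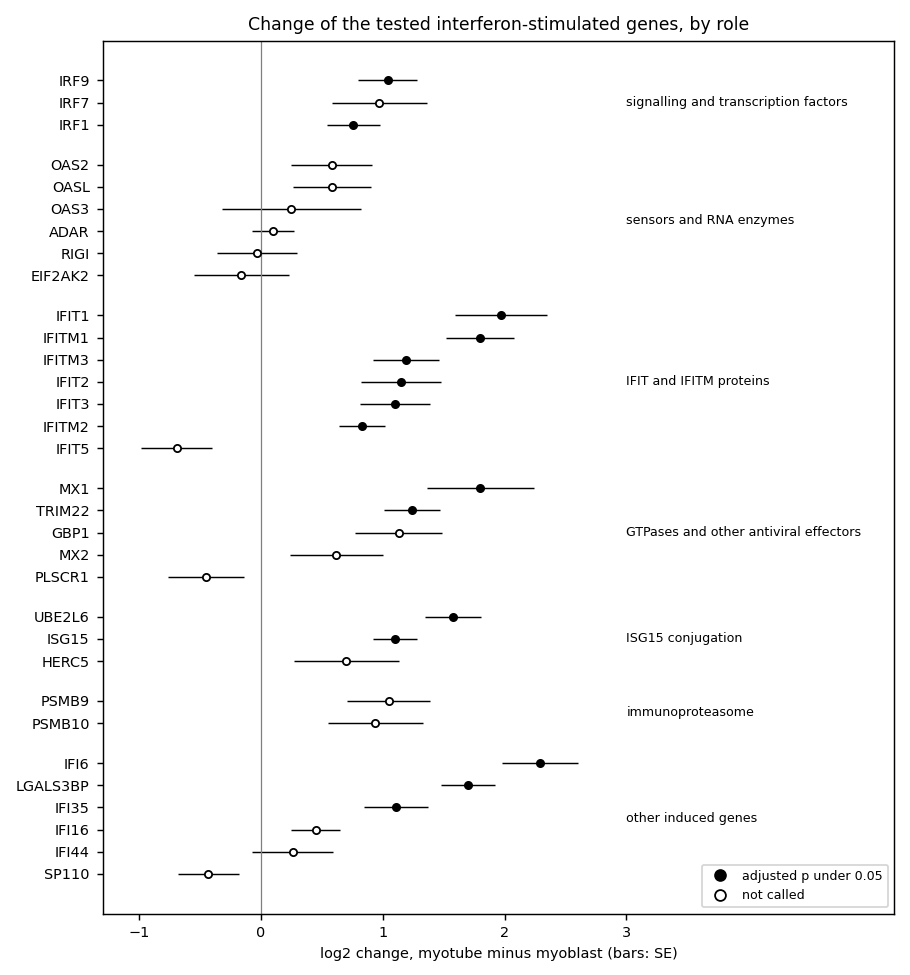
Log2 change, myotube minus myoblast, of the 32 tested members by role; points are fitted changes, bars are 1 SE on each side, and filled points passed an adjusted p of 0.05. The IFIT and IFITM block is filled except for IFIT5 at -0.69, while all 6 sensors and RNA enzymes are open and lie between -0.16 and 0.58.

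None of the 6 tested sensors and RNA enzymes was called in either direction. This class detects viral RNA or degrades and edits it, and its median log2 change was 0.17. ADAR, which converts adenosine to inosine in double-stranded RNA, had signals of 6093, 5840 and 6243 in myotubes, against 6790, 5158 and 5166 in myoblasts. Its log2 change of 0.10 ± 0.17 had a 95% interval of -0.29 to 0.48. RIGI, a cytosolic sensor of triphosphate RNA, had a log2 change of -0.03 ± 0.33 (interval -0.76 to 0.70). Of the RIGI values, 2 of 3 in myotubes and 1 of 3 in myoblasts were at or below the control level.

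EIF2AK2, the kinase PKR that halts translation on binding double-stranded RNA, had 969, 3188 and 2941 in myotubes, against 3379, 1932 and 2052 in myoblasts. Array 1 stood apart in both groups, in opposite directions, and the log2 change was -0.16 ± 0.39 (interval -1.03 to 0.71). A second EIF2AK2 probe set gave -0.07 ± 0.26 with overlapping groups, and on it array 1 was the lowest of each group. The 3 tested genes of the oligoadenylate synthetase family had positive changes that were not called. OAS2 had 802, 710 and 664 in myotubes, against 458, 388 and 409 in myoblasts, with no overlap and a log2 change of 0.58 ± 0.33. In each group 1 of the 3 OAS2 values was at or below the control level. OASL had the same log2 change of 0.58 ± 0.32, and OAS3 had 0.25 ± 0.57, both with overlapping groups. OAS3 was the most scattered of these, at 2284, 209 and 1128 in myotubes, against 513, 836 and 882 in myoblasts. The OAS3 values of 209 and 513 were at or below the control level.

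Oas3 shows that the element was also present in a promoter of a member that was not called. The stretch is chr5:120777705-120777754 on the minus strand of RefSeq's GRCm38.p6, 5′ to 3′ with the core in capitals.
Oas3: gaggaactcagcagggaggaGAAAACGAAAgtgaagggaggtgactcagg

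**Figure D3:**
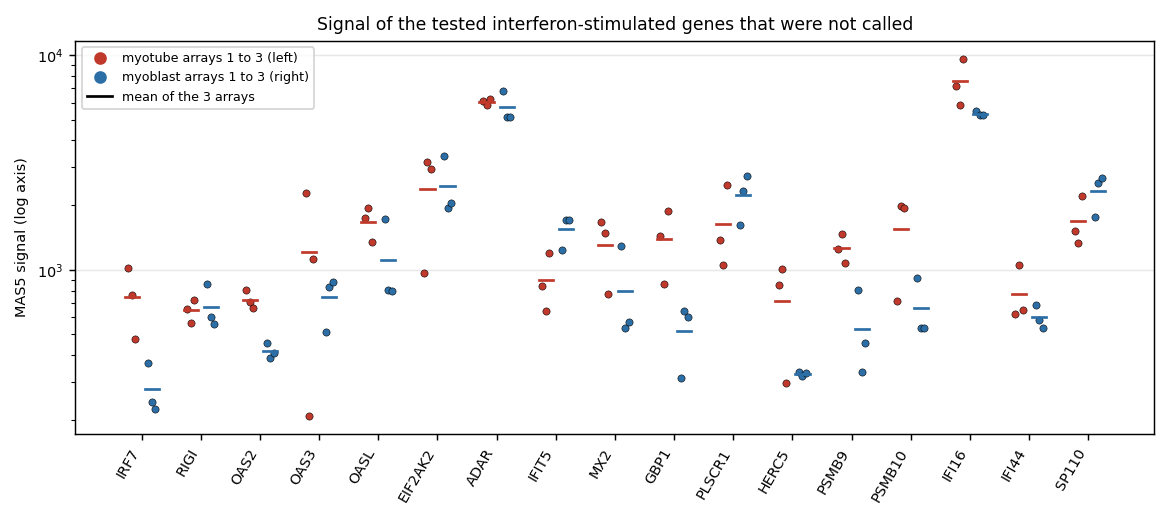
MAS5 signal (log axis) of the 17 tested members that were not called, with the 3 myotube arrays (red, left) beside the 3 myoblast arrays (blue, right) and a bar at each group's mean. IRF7, OAS2, GBP1, PSMB9 and IFI16 have all myotube points above all myoblast points, IFIT5 has them below, and the other 11 overlap. Of the 6 IRF7 values 5 were at or below the control level, and OAS2, GBP1, PSMB9 and IFIT5 also had values there.

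The 13 members below the filter were IFIH1, OAS1, SAMHD1, ISG20, GBP2, BST2, RSAD2, USP18, HERC6, PSMB8, IFI27, IFI44L and XAF1. For 10 of them no array exceeded its control level, and the exceptions were SAMHD1, ISG20 and IFI27. The myotube arrays lay above the myoblast arrays for 6 of the 13, namely IFIH1, ISG20, BST2, HERC6, PSMB8 and XAF1, beside 17.7% of all genes below the filter. ISG20, an exonuclease of single-stranded RNA, had 802, 155 and 538 in myotubes, against 75.2, 114 and 69.2 in myoblasts. IFIH1, the sensor of long double-stranded RNA also called MDA5, had 631, 136 and 47.8 in myotubes, against 37.2, 8.09 and 8.19 in myoblasts. All of these IFIH1 values were at or below the control level. ISG20 and IFIH1 each had a dimmer second probe set, on which the groups overlapped. With no filter, 13 of the 45 members were higher, beside 3.6% of all 11963 genes, and none of the 13 dim members was among them.

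The rest of the interferon pathway, from a list of 47 other genes, gave no call among the 32 tested, with limma, where 3 had an unadjusted p under 0.05, beside 32.2% of all genes tested and 21 of the 32 tested members. These were IRF8, a transcription factor of myeloid cells, with a log2 change of 0.96 ± 0.39, IKBKE, a kinase that activates IRF3 and IRF7, with 0.58 ± 0.23, and PTPN6, a phosphatase that dampens Janus kinase signalling, with 0.99 ± 0.43. For IRF8 and for PTPN6, 2 of the 3 myoblast values were at or below the control level. The median log2 change of the 32 was 0.22. The ligands IFNA1, IFNA2, IFNB1 and IFNG were all below the filter, and the groups overlapped for each of the 4. IFNB1, the beta interferon gene, had signals of 164, 119 and 33.2 in myotubes, against 39.0, 36.8 and 20.1 in myoblasts. All of these IFNB1 values were at or below the control level, so they were not told from background.

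Of the receptor subunits, 4 were tested and none was called, with log2 changes of 0.27 to 0.41. IFNAR2, a chain of the type I receptor, had 1254, 1320 and 1616 in myotubes, against 536, 1354 and 1305 in myoblasts. The IFNAR2 value of 536 was at or below the control level. The receptor gene IFNAR1 was below the filter, with 138, 66.4 and 461 in myotubes, against 495, 397 and 330 in myoblasts. All 3 IFNAR1 myotube values and 1 myoblast value were at or below the control level. With the series as a block STAT3, which carries signals of the interleukin 6 family, was the 1 gene of this list called higher (log2 change 1.48, limma adjusted p = 0.0387). Its change with all arrays was 0.29 ± 0.43.

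**Figure D4:**
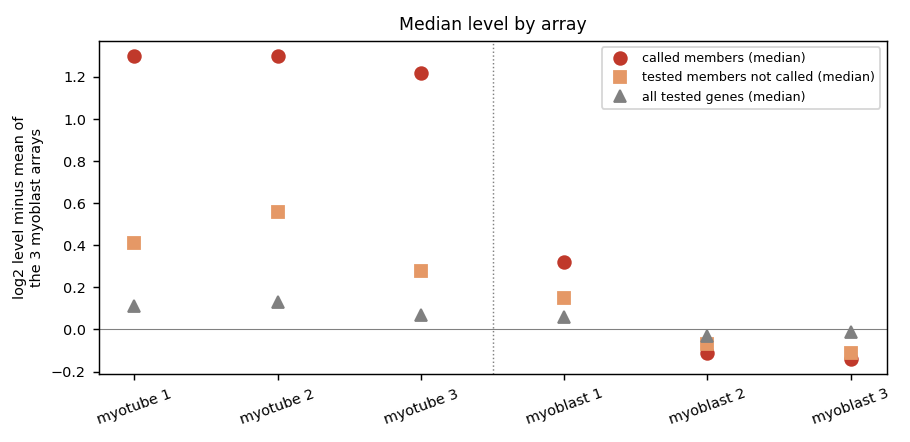
Median over genes of the log2 level minus the gene's mean on the 3 myoblast arrays, for each array, with myotube arrays left of the dotted line. The called members stand at 1.22 to 1.30 on the myotube arrays and at 0.32, -0.11 and -0.14 on the myoblast arrays, while all tested genes stay between -0.03 and 0.13; the called members were selected on these arrays, so their height is a description.

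For these genes the myotube arrays had similar medians, and myoblast array 1 stood above the other myoblast arrays. Over the 32 tested members the median level, relative to the mean of the myoblast arrays, was 0.96, 0.99 and 0.85 on the log2 scale on myotube arrays 1, 2 and 3, against 0.26, -0.10 and -0.12 on myoblast arrays 1, 2 and 3. Over all genes tested the medians were 0.11, 0.13 and 0.07 on the myotube arrays, against 0.06, -0.03 and -0.01 on the myoblast arrays. Myoblast array 1 was thus the myoblast array closest to the myotubes for these genes. It was the highest of its group for 24 of the 32 tested members and 12 of the 15 called ones, where it was the highest for 50.6% of all genes tested.

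**Figure D5:**
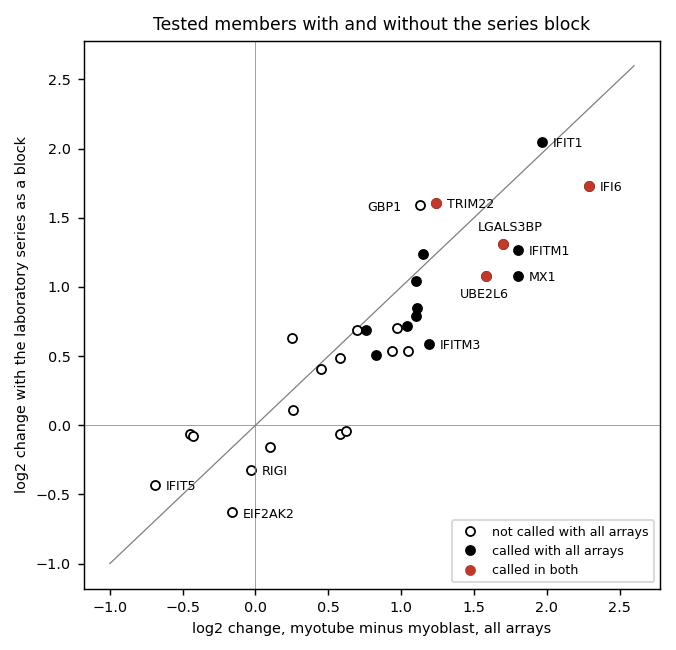
Log2 change of each tested member with all arrays (horizontal) and with the series block (vertical), with a grey line where both are equal. The 4 red points, IFI6, LGALS3BP, TRIM22 and UBE2L6, were called in both; most points lie below the line, and GBP1 and TRIM22 are among the 8 above it.

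Under the series block the median change of the 32 members was 0.66, against -0.002 for all genes tested. Of the 32 members 15, the 4 called ones included, had an unadjusted p under 0.05 from limma, where 18.3% of all tested genes had one in either direction. IFIT1 changed by 2.05 with the block (limma adjusted p = 0.0767), close to its change without it. For IFITM1, IFITM2, IFITM3, MX1 and UBE2L6 the blocked change was smaller, and it was smaller for IFI6 and LGALS3BP too. Leaving out each array in turn kept the calls of IFITM1, TRIM22, ISG15, UBE2L6, IFI6 and LGALS3BP every time. The calls of IRF9, IFITM3, MX1 and IFI35 were each lost without myoblast array 2 or 3 or myotube array 1 or 2, and that of IFITM2 without myoblast array 2 or 3 or myotube array 2. The number of called members was 17 without myoblast array 1, where 15.6% of all genes were called higher. It was 7 without myoblast array 2 or 3, where 2.34% and 2.36% were. Without myotube array 1, 2 and 3 it was 9, 6 and 12, where 2.76%, 2.27% and 6.75% were. The members' count and the share over all genes both fell without myoblast array 2 or 3 or myotube array 1 or 2. Both rose without myoblast array 1. Without myotube array 3 the members' count fell, whereas the share over all genes rose.

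Brightness did not order the members' changes. When all tested genes were split into 5 bins of equal size by mean signal, dimmest to brightest, the median log2 change of all genes was 0.40, 0.27, 0.09, -0.02 and -0.13. The members' medians in the same bins were 0.64, 1.07, 0.90, 1.24 and 0.83, over 6, 8, 6, 7 and 5 genes. In each bin the members' median was above that of all genes.

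The promoters of the mouse genes with the members' symbols were read for both elements from 250 bases before to 50 bases after the start. RefSeq's GRCm38.p6 table gave a protein-coding mouse gene of the same symbol for 36 of the 46 members and a promoter window for 33. The response element core GAAANNGAAA, on either strand, was in 13 of the 33 (39.4%), where 3.99% of 27025 genes had it, or 3.44% of all windows of this length. The gamma-activated site TTCNNNGAA was in 11 of the 33 (33.3%), where 9.55% of all genes and 8.3% of all windows had it. Both elements were in the windows of 3 members, Eif2ak2, Ifitm3 and Bst2, and they overlapped each other in Ifitm3 and Bst2.

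The motifs were spread over called and uncalled members. The core was in 5 of 12 called members with a window, in 3 of 10 tested members that were not called, and in 4 of 10 members below the filter. The gamma-activated site was in 4 of 12, 3 of 10 and 4 of 10 of the same classes. These are matches of letters in the mouse promoters and describe no binding in these cells.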

How the data were processed

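RNA labelled as C2C12 was measured on 6 arrays of type HG-U133A, 3 for each stage. The deposited values are an intensity, 1 linear signal per probe set. The submitters' processing notes name MAS5 as the tool that the authors used, with no version. Titles gave groups and numbers, except for myoblast array 3, grouped by its description; the run records number some myoblast arrays differently. Arrays have no read depth; precision is limited by their number.

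Of 22283 probe sets, 68 controls were left out; 19065 had 1 gene symbol, 1043 several and 2107 none, and none with several was used. Each gene was read from its brightest probe set. Genes with a mean signal below the 40th percentile, 474, were left out of the test. The fit used log2(signal + 197) in limma 3.58.1 (R 4.3.3; statmod 1.5.0; two-sided, lmFit and eBayes with an intensity trend), adjusted over 8161 genes. It was tested on simulated data. Figures used matplotlib 3.10.9.

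The members and lists were chosen with earlier results of these data known. Every member is accounted for, each called one by array. Alternatives covered the pseudocount, filter, scaling, probe set choice, variance model, chip lot, laboratory series and omission of arrays. Promoters were those of mouse genes with the human symbol. One result is not reported here.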

Additional observations from a re-analysis of the deposited data

How the results depend on the processing

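With myoblast arrays 2 and 3 averaged as 1 sample 7 members were called higher (2.38% of all genes), with chip lot as a random block 6 (1.81%), with the laboratory series as a block 4 (1.81%) and with its first series alone 2 (1% of all genes), a fit in which the spread of the single myoblast array is taken from the myotube arrays. Leaving out each array in turn gave 6 to 17 members and 2.27% to 15.6% of all genes. No setting called a member lower. The median log2 change of 0.95 was 0.66 with the series block and with the first series alone, and 0.70 with a pseudocount at the 50th percentile. With the replicate block, 16 members and 9.51% of all genes were called higher, against 15 and 5.88% without it. Deviations of same-numbered arrays from their group means correlated at 0.25, -0.184 and 0.38. With 3 arrays in each group, these correlations cannot decide whether the numbers pair the arrays. Over 23 other settings, the 15 called members kept their call in 253 of 345 cases, and none turned. Of 387 cases of the uncalled members 4 became calls and 12 turned direction. In both series settings the change was -0.16 for ADAR, -0.04 for MX2 and -0.06 for OASL. RIGI was 0.28 with signals raised to the control level. Leaving out each array gave -0.43 to 0.34 for EIF2AK2 (0.08 without myoblast array 1), -0.34 to 0.97 for OAS3 and -0.13 to 0.12 for RIGI (0.04 without myotube array 2). The causes were not tested.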

Other observations

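Of the 46 members, 10 had no protein-coding mouse gene of the same symbol in RefSeq's GRCm38.p6 table. Only entries annotated as protein-coding were searched, so a mouse gene annotated as another type was counted as absent. The 10 were OAS1, OASL, IFIT5, MX1, MX2, GBP1, TRIM22, HERC5, IFI6 and IFI16. Of these 3, MX1, TRIM22 and IFI6, were among the 15 called higher. Whether those probe sets bound mouse transcripts of other names was not tested.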
